A study of Mus musculus with 9 samples.

Results

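The 10 genes of transcription regulators are described here across inhibitory neurons of the mouse central amygdala: Foxp1, Foxp2, Foxp4, Bcl11a, Bcl11b, Sox5, Sox6, Tox, Satb1 and Mef2c. They were taken by name, as 10 of the 22601 genes counted. Earlier results of these data were known when they were chosen. The study profiled single cells from the central amygdala of wild-type (WT) B6 mice. The tissue was dissected from acute brain slices, dissociated, and pooled over slices. There was 1 group, with no treatment, deletion or transgene, in 9 samples holding 829 cells. The labels give neither age nor sex, and do not say whether the 9 samples are 9 animals. The cell names carry an animal number from 1 to 3 and a field that reads as a date with 3 values, so that each sample has its own combination. The p-values below therefore measure the spread between these samples, which may in part be technical.

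These 10 proteins bind DNA and set which genes a neuron keeps on or off. The Foxp proteins are forkhead factors that pair with one another and mostly repress transcription, and in the neighbouring striatum Foxp1 and Foxp2 are known from projection neurons. Bcl11a and Bcl11b (also called Ctip1 and Ctip2) are zinc-finger proteins that are also subunits of the BAF chromatin remodelling complex, and Bcl11b is needed for striatal projection neurons to mature. Sox5 and Sox6 are SoxD factors with an HMG box and no activation domain of their own. Tox is another HMG-box protein, best known from T cells. Satb1 organises chromatin loops and is known for the maturation of somatostatin interneurons. Mef2c is a MADS-box factor that responds to activity and limits excitatory synapse number.

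A cell was called positive for a gene when that gene took at least 1 in 10000 of the cell's gene counts. Of the 829 cells, 810 were positive for Gad1, Gad2 or Slc32a1, the enzymes and the transporter of GABA neurons, and for neither Slc17a7 nor Slc17a6, the glutamate transporters of excitatory neurons. Gad2 was positive in 769 of these 810 cells, Gad1 in 726 and Slc32a1 in 135. Slc17a7 and Slc17a6 were positive in 0 by the rule itself. The excitatory markers Neurod6 and Tbr1, which the rule did not use, were also positive in 0. Sample totals ran from 8522750 to 22730327 counts, and the median inhibitory neuron held 126576 counts. Of the inhibitory neurons, 9 held fewer than 20000 counts. Across samples, 368 of the 376 cell barcodes recurred, and 0 cells had identical counts. Markers of microglia, astrocytes, endothelial and ependymal cells were positive in at most 10 of the 810 cells each, but Mbp, a myelin gene, was positive in 210.

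The neurons were split by 5 genes that mark subsets of central amygdala neurons: Prkcd (protein kinase C delta), Sst (somatostatin), Nts (neurotensin), Isl1 (a LIM-homeodomain factor) and Nr2f2 (the nuclear receptor COUP-TFII). Prkcd was positive in 343 cells, Sst in 148, Nr2f2 in 116, Nts in 115 and Isl1 in 76, and 197 cells were negative for all 5. The classes overlap: 65 cells were positive for Sst and Nts, 47 for Prkcd and Nr2f2, and 23 for Prkcd and Sst.

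The promoters of the members help to show what was counted. RefSeq promoters on GRCm38.p6 (250 bases before to 50 after a start site) were found for 8 of the 10 members, 21 starts in all. The deposited counts were made on NCBIM37 and are per gene, so they do not show which start was used. Sox5 and Bcl11b are printed because they passed the test in 5 and 3 of the 5 splits below. Satb1 also passed in 3 of them and has 5 starts, which are not printed. Of the 3 Foxp1 starts, 1 is printed because it holds letters of the SOX motif. Capitals mark any match to the 4 motifs searched. The Sox5 start lies at chr6:143947057-143947356 on the minus strand, the Bcl11b start at chr12:108003365-108003664 on the minus strand, and the Foxp1 start at chr6:99266466-99266765 on the minus strand.
Sox5: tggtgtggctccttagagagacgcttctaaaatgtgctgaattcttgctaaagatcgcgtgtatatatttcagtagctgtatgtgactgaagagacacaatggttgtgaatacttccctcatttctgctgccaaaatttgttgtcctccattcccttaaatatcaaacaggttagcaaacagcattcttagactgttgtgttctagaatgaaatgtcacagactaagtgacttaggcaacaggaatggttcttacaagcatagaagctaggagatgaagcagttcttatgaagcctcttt
Bcl11b: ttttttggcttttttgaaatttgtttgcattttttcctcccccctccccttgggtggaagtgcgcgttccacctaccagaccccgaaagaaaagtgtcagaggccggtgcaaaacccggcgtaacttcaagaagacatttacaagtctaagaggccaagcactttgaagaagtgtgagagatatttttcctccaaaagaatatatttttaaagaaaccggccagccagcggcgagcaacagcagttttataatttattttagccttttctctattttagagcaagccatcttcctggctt
Foxp1: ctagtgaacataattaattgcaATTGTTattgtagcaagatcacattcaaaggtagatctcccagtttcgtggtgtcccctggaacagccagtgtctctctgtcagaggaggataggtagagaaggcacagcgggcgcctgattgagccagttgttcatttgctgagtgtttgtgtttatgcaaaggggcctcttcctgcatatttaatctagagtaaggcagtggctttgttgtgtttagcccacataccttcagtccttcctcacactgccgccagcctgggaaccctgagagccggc

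The SOX letters AACAAT, read on either strand, were in 2 of the 21 member promoters, 1 of Foxp1 and 1 of Sox6, and in 10.7% of all 32851 promoters. The MEF2 letters, CTA and TAG with any 4 bases between them, were in 1 member promoter, of Sox6, against 3.69% of all. The forkhead letters TGTTTAC and the BCL11A letters TGACCA were in 0 of the 21, against 3.65% and 13.6% of all. These matches are descriptions of the letters in these windows. The Sox5 window was 39.7% G and C and held 3 CpG, and the Bcl11b window was 43.0% G and C and held 9, against a median of 52.7% G and C over all promoters.

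Bcl11a and Bcl11b were broadly detected, and the other 8 members were each positive in a minority of cells. Bcl11b was positive in 79.2% ± 2.10 of inhibitory neurons (mean ± SD, n = 9 samples), with a lowest sample of 74.7%, a median of 79.3% and a highest of 81.7%. Bcl11a was positive in 72.6% ± 5.90 (SD, n = 9), from 63.4% through a median of 72.1% to 81.7%. Sox5 was positive in 27.4% ± 2.98 (SD, n = 9), from 23.2% through 27.4% to 31.7%. The Bcl11b and Sox5 shares varied little between samples.

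Foxp1 and Mef2c each marked about the same number of cells. Foxp1 was positive in 20.7% ± 5.40 (SD, n = 9), from 9.68% through 22.1% to 27.4%. Mef2c was positive in 20.4% ± 4.67 (SD, n = 9), from 14.1% through 18.3% to 28.6%. For Foxp1 the 3 samples with the first value of the date field were the 3 lowest, at 9.68% to 18.9%, and the other 6 lay between 21.5% and 27.4%. The part of the date in this spread was not tested.

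The remaining members were scarce. Tox was positive in 6.72% ± 2.76 of inhibitory neurons (SD, n = 9; 3.16% to 11.6%) and Satb1 in 5.02% ± 3.49 (SD, n = 9; 1.05% to 11.6%). Foxp2 was positive in 18 cells, 2.23% ± 2.05 (SD, n = 9), and in 0 cells of 3 samples. Sox6 was positive in 2 cells and Foxp4 in 1, which held fewer than 20000 counts. Foxp4 had at least 1 count in 32.6% ± 2.81 of cells (SD, n = 9), a share with no background measured beside it.

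**Figure D1:**
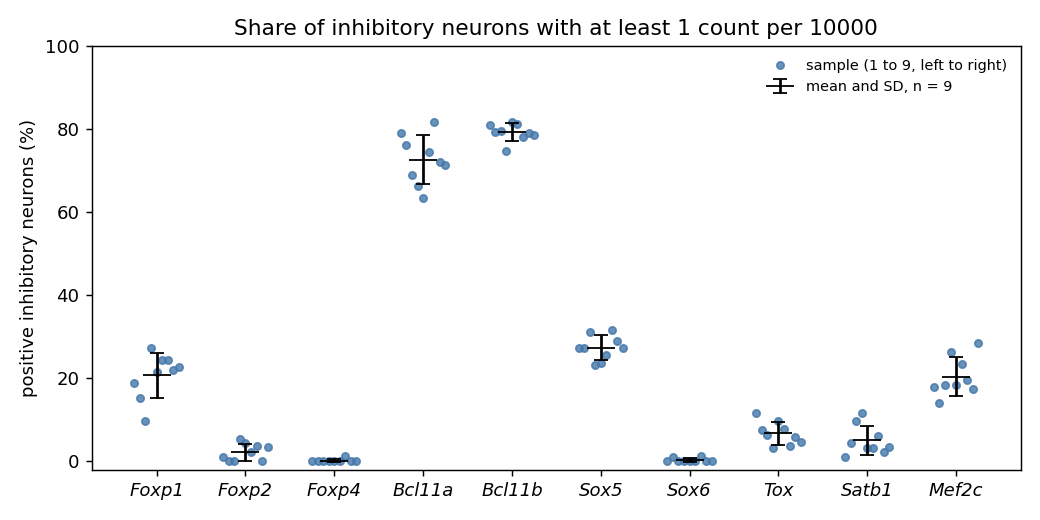
Share of inhibitory neurons (%) positive for each of the 10 genes, by sample (points, n = 9), with mean and SD. Bcl11a and Bcl11b sit above 60% in all 9 samples, Sox5, Foxp1 and Mef2c between 9.68% and 31.7%, and the other 5 at or under 11.6%.

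Most neurons held 2 or 3 of the 10 factors at once. Of the 810 cells, 300 were positive for 2 members, 265 for 3, 124 for 1, 85 for 4, 28 for 0 and 8 for 5. The commonest of 64 combinations was Bcl11a with Bcl11b alone, in 162 cells, then these with Sox5, in 103. Bcl11b alone was found in 65 cells, and Bcl11a and Bcl11b with Mef2c in 45.

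To compare classes, counts were summed over the positive and over the other neurons of each sample and tested with edgeR, with the sample as a block. The 5 splits use the same 810 cells, so they are not independent of one another. The median log2 fold change over all genes was -0.02 for Prkcd, -0.17 for Sst, -0.22 for Nts, -0.34 for Isl1 and -0.24 for Nr2f2. Mbp was positive in 30.9% of Prkcd cells, 33.8% of Sst cells, 31.3% of Nts cells, 22.4% of Isl1 cells, 22.4% of Nr2f2 cells and 16.8% of cells negative for all 5. The summed level of the 8-gene oligodendrocyte list had a median over samples of 1.53 counts per 10000 in Prkcd cells (1.41 to 2.30). In the others the median was lower, at 1.06, with a wider range (0.736 to 24.8). Each fit was also run without Mbp-positive cells, and the calls lost without them are named beside the results. Those fits held fewer cells, so a lost call cannot be told apart from a loss of power. The part of Mbp-positive cells in each result was therefore not tested.

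In Prkcd-positive neurons Sox5 was higher and Foxp1, Mef2c and Satb1 were lower than in the other neurons. These are 1 of 8 tested members higher and 3 lower, where 7.59% of all genes were higher and 9.74% lower. The median log2 fold change of the 8 tested members was -0.62.

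Sox5 marked the Prkcd neurons, with 50.3% ± 5.85 of them positive (SD, n = 9) against 10.5% ± 2.68 of the others. In CPM (summed counts scaled to a common library total) it ran from 108 through a median of 137 to 194 in Prkcd neurons, and from 16.7 through 28.5 to 56.2 in the others. Every sample was higher and the groups did not overlap. On the log2 scale the difference was 2.31 ± 0.21 (SE, edgeR adjusted p = 5.80e-06, higher in 9 of 9 samples). It was 2.64, 2.30 and 1.78 on average within the 3 date-field values.

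Mef2c ran the other way. Its CPM were 5.46 at the lowest, 24.1 at the median and 40.7 at the highest in Prkcd neurons, and 72.1, 111 and 149 in the others, with no overlap. In the edgeR fit the log2 fold change was -2.39 ± 0.33 (SE, edgeR adjusted p = 0.000180, lower in 9 of 9 samples), and averaged -1.51, -3.53 and -2.15 within the 3 date-field values.

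Foxp1 was lower in Prkcd neurons of all 9 samples, although the 2 groups overlapped. It ran from 22.6 through 32.5 to 47.9 CPM in Prkcd neurons and from 36.2 through 100 to 156 in the others. The log2 fold change was -1.30 ± 0.23 (SE, edgeR adjusted p = 0.00150). Its average within the date-field values was -0.56, -2.06 and -1.30, so the difference was smallest in the 3 samples that had the fewest Foxp1 cells.

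Satb1 was lower in 8 of 9 samples, from 0 through 3.85 to 20.3 CPM in Prkcd neurons and from 11.1 through 27.3 to 66.9 in the others. Its log2 fold change was -3.05 ± 0.79 (SE, edgeR adjusted p = 0.0156). Tox was at -1.92 ± 0.80 and did not pass (edgeR adjusted p = 0.128), although it passed with DESeq2 (adjusted p = 0.00632). Foxp2 did not pass the filter on low counts in this split, with 81 counts in Prkcd neurons and 1271 in the others; with no filter it was at -4.18 ± 1.18 (SE, edgeR adjusted p = 0.0344). It passed the filter in 2 of the 9 fits that left out a sample, with an edgeR adjusted p of 0.0563 without sample 3 and 0.0396 without sample 8. Sox6 had 0 counts in Prkcd neurons and 104 in the others, and was lower in 5 of 9 samples. With 0 set to a class floor of 3 counts this is at least 23.5-fold lower, a bound for counting error only. The counts came from few cells: 1.09% ± 1.30 of inhibitory neurons had at least 1 count (SD, n = 9), and 2 were positive. A bound that takes cells as the unit was not computed.

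**Figure D2:**
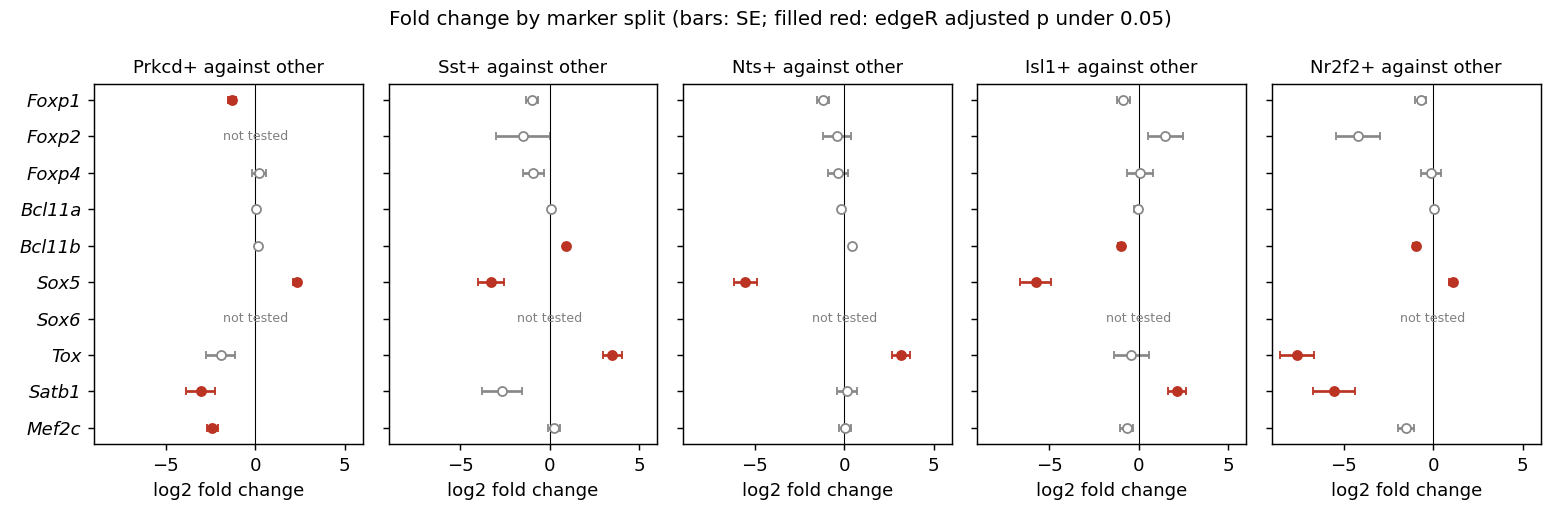
Log2 fold change of each gene in neurons positive for the named marker against other inhibitory neurons (bars: SE; filled: edgeR adjusted p under 0.05; n = 9 samples). Sox5 lies right of 0 for Prkcd and Nr2f2 and left of 0 for Sst, Nts and Isl1; the Tox value for Nr2f2 rests on 2 counts in that class.

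In Sst-positive neurons Bcl11b and Tox were higher and Sox5 was lower. These are 2 of 9 tested members higher and 1 lower, where 2.25% of all genes were higher and 2.26% lower. The median of the 9 members was -0.92.

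Bcl11b was high in Sst neurons of every sample, from 528 through 696 to 969 CPM against 329 through 373 to 417 in the others, with no overlap. It had a log2 fold change of 0.90 ± 0.09 (SE, edgeR adjusted p = 6.24e-05, higher in 9 of 9 samples).

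Tox was concentrated in Sst and Nts neurons. In Sst neurons it ran from 17.7 through 81.5 to 121 CPM, against 1.02 through 6.89 to 12.4 in the others, with no overlap. That is a log2 fold change of 3.51 ± 0.53 (SE, edgeR adjusted p = 0.00176, higher in 9 of 9 samples). Of the 55 Tox-positive neurons, 41 were positive for Sst and 33 for Nts.

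Sox5 was positive in 5 of the 148 Sst neurons. It ran from 0 through 14.5 to 71.0 CPM there and from 72.1 through 85.4 to 112 in the others, with no overlap. The log2 fold change was -3.29 ± 0.74 (SE, edgeR adjusted p = 0.0206, lower in 9 of 9 samples). Its average within the date-field values ran from -5.47 to -1.66, and the call was lost without Mbp-positive cells (-2.72, edgeR adjusted p = 0.130) and without sample 2 (-3.11, edgeR adjusted p = 0.0576). When a cell was called positive from 1 count of Sst, the edgeR test called 0 members.

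In Nts-positive neurons Tox was higher and Sox5 was lower, 1 of 9 tested members in each direction, where 1.01% of all genes were higher and 1.26% lower. The median of the 9 members was -0.16. Tox ran from 17.2 through 69.9 to 89.0 CPM in Nts neurons and from 1.64 through 6.39 to 18.7 in the others, so that 1 end of each range overlapped. In the edgeR fit the log2 fold change was 3.15 ± 0.50 (SE, edgeR adjusted p = 0.00408, higher in 9 of 9 samples), and the call was lost without Mbp-positive cells (2.74, edgeR adjusted p = 0.0952).

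Sox5 was almost absent from Nts neurons. It ran from 0 through 0.795 to 11.1 CPM against 75.5 through 86.5 to 104 in the others, with no overlap. The fitted log2 change was -5.53 ± 0.64 (SE, edgeR adjusted p = 0.000356, lower in 9 of 9 samples). Bcl11b was at 0.44 ± 0.12 in Nts neurons and did not pass (edgeR adjusted p = 0.0824), but passed without the replicate block (0.46, edgeR adjusted p = 0.0303).

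In Isl1-positive neurons Satb1 was higher and Bcl11b and Sox5 were lower. These are 1 of 9 tested members higher and 2 lower, where 1.69% of all genes were higher and 3.15% lower. The median of the 9 members was -0.41. Satb1 ran from 19.2 through 55.5 to 154 CPM in Isl1 neurons and from 3.05 through 11.1 to 37.9 in the others, with overlap. The log2 fold change was 2.16 ± 0.50 (SE, edgeR adjusted p = 0.0213, higher in 8 of 9 samples). Without sample 6 it was 2.11 (edgeR adjusted p = 0.0545), without Mbp-positive cells 2.07 (edgeR adjusted p = 0.129), and with cells thinned to one depth 1.91 (edgeR adjusted p = 0.0541).

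Bcl11b and Sox5 separated Isl1 neurons in every sample. Bcl11b ran from 90.1 through 273 to 370 CPM in Isl1 neurons and from 411 through 434 to 518 in the others, with no overlap. Its log2 fold change was -0.98 ± 0.18 (SE, edgeR adjusted p = 0.00672, lower in 9 of 9 samples). Sox5 was at 0 at the lowest and at the median and 18.2 at the highest in Isl1 neurons, against 72.0, 84.8 and 101 in the others. Its log2 fold change was -5.75 ± 0.85 (SE, edgeR adjusted p = 0.00150, lower in 9 of 9 samples).

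In Nr2f2-positive neurons Sox5 was higher and Bcl11b, Tox and Satb1 were lower. These are 1 of 9 tested members higher and 3 lower, where 0.4% of all genes were higher and 1.28% lower. The median of the 9 members was -0.95. Sox5 ran from 94.5 through 130 to 211 CPM in Nr2f2 neurons and from 48.6 through 65.7 to 80.7 in the others, with no overlap. That is a log2 fold change of 1.09 ± 0.19 (SE, edgeR adjusted p = 0.0107, higher in 9 of 9 samples).

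Bcl11b was low in Nr2f2 neurons of 8 of 9 samples. It ran from 136 through 219 to 406 CPM against 390 through 443 to 521 in the others, so the highest Nr2f2 sample overlapped. On the log2 scale the difference was -0.95 ± 0.17 (SE, edgeR adjusted p = 0.00988). With a threshold of 3 counts of Nr2f2 per 10000, which left 6 samples, edgeR called 0 members.

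Tox was all but missing from Nr2f2 neurons. It had 2 counts in Nr2f2 neurons, summed over 9 samples, and 2140 in the others, a ratio of 155 (95% interval 42.9 to 1282, counting error only) in favour of the others (edgeR adjusted p = 0.00110, lower in 9 of 9 samples). Of 116 Nr2f2 neurons, 0 were positive for Tox. A floor of 3 cells would be 2.59% of them, a bound that takes cells as independent draws although they come from 9 samples. Tox was not called in this split with equal cell numbers in both classes, a fit that held fewer cells. Satb1 was lower in all 9 samples (-5.53 ± 1.15, SE, edgeR adjusted p = 0.0295), from 0 to 14.2 CPM against 11.97 to 54.7. That call passed in only 2 of the 9 fits that left out 1 sample, where the edgeR adjusted p reached 0.0743, and not without the replicate block (-2.87, edgeR adjusted p = 0.158).

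Several of these calls depended on how a class was drawn. With 1 count of Prkcd as the threshold, Foxp1 (-0.84, edgeR adjusted p = 0.0519) and Satb1 (-1.25, edgeR adjusted p = 0.340) no longer passed, and with 1 count of Nts, Tox did not (2.51, edgeR adjusted p = 0.103). With equal cell numbers in both classes, Sox5 in the Nr2f2 split (1.23, edgeR adjusted p = 0.520) and Satb1 in the Isl1 split (2.14, edgeR adjusted p = 0.345) did not pass. In the Nr2f2 split Bcl11b was then the 1 member called, so Tox and Satb1 were not called either. Fewer cells and genes entered these fits. Neurons positive for 1 marker alone, set against neurons negative for all 5, gave 0 called members for Sst, Isl1 and Nr2f2 by edgeR, with 5, 6 and 7 samples left.

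Bcl11a passed in none of the 5 splits. Its log2 fold changes lay between -0.16 ± 0.12 (SE, Nts) and 0.07 ± 0.10 (SE, Nr2f2), with edgeR adjusted p from 0.615 to 0.933. Foxp4 likewise passed in none, with edgeR adjusted p from 0.490 to 0.956. Foxp2 was at 1.5 ± 0.96 (SE, edgeR adjusted p = 0.401) in Isl1 neurons and at -4.19 ± 1.24 (SE, edgeR adjusted p = 0.122) in Nr2f2 neurons.

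**Figure D3:**
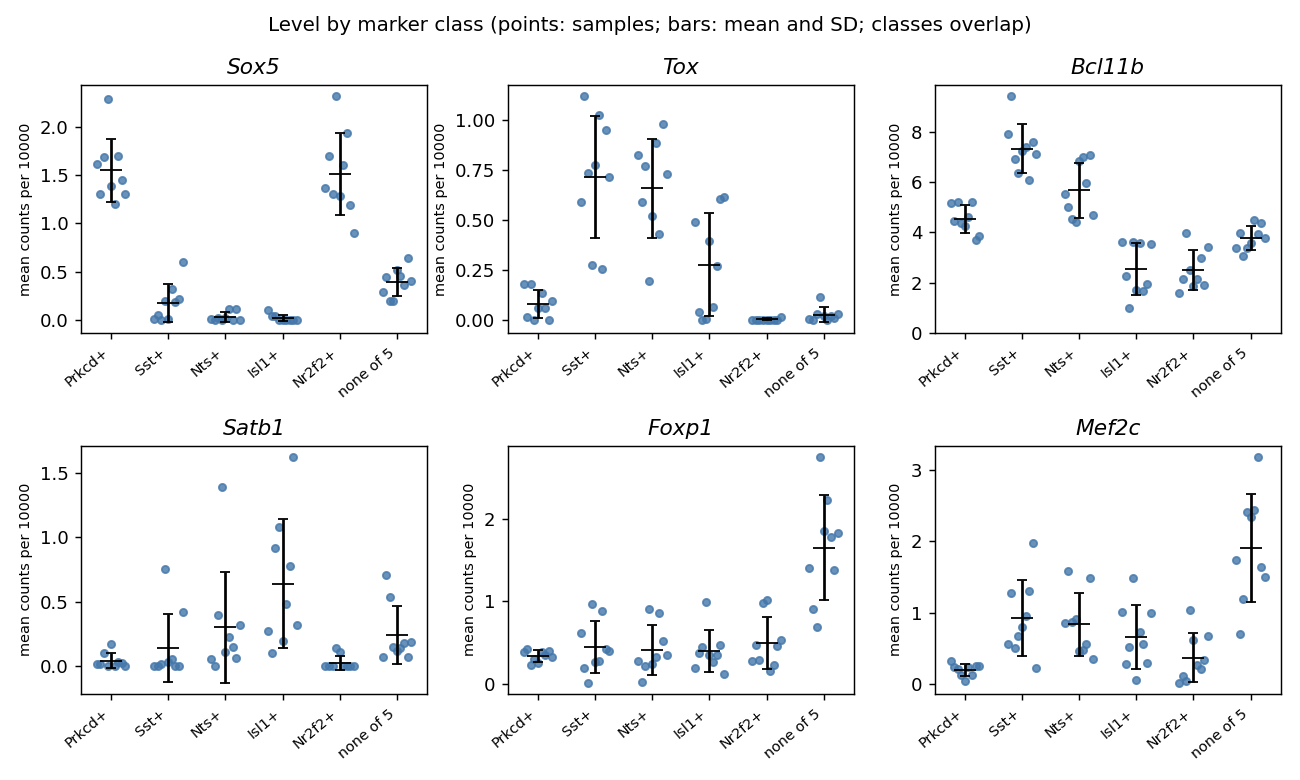
Mean level (counts per 10000 of a cell's counts) of 6 genes in each marker class and in neurons negative for all 5 markers, by sample (points), with mean and SD over 9 samples. Sox5 is highest in Prkcd and Nr2f2 neurons, Tox in Sst and Nts neurons, and Foxp1 and Mef2c in neurons negative for all 5.

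Levels per class gave an order for each gene. Levels here are means of counts per 10000 over the cells of a class, averaged over the 9 samples, and an order is within a gene only. Sox5 stood at 1.55 ± 0.33 (SD) in Prkcd and 1.51 ± 0.43 in Nr2f2 neurons, which differed by less than their spread, and at 0.389 ± 0.148 in neurons negative for all 5 markers. Sst, Nts and Isl1 neurons followed at 0.175 ± 0.196, 0.0294 ± 0.0479 and 0.0191 ± 0.0335, neighbours that did not differ beyond their spread.

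Bcl11b was graded across the classes. It stood at 7.33 ± 0.98 (SD) in Sst, 5.67 ± 1.09 in Nts, 4.53 ± 0.56 in Prkcd and 3.77 ± 0.47 in neurons negative for all 5, each step being larger than the spread. Isl1 and Nr2f2 neurons came last, at 2.55 ± 1.04 and 2.51 ± 0.80, and did not differ beyond their spread.

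Foxp1 and Mef2c were highest in neurons that carried none of the 5 markers. Foxp1 stood at 1.65 ± 0.63 (SD) there and between 0.337 and 0.492 in the 5 marker classes, which did not differ between neighbours beyond their spread. Mef2c stood at 1.90 ± 0.76 in neurons negative for all 5, at 0.919 ± 0.531 in Sst neurons, and at 0.200 ± 0.083 in Prkcd neurons, the last in the order. Each step between neighbours among the 5 marker classes was within the spread. Of the 197 neurons negative for all 5 markers, 77 were positive for Foxp1 and 71 for Mef2c.

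Tox stood at 0.715 ± 0.305 (SD) in Sst and 0.658 ± 0.248 in Nts neurons, which did not differ beyond their spread, and then at 0.275 ± 0.259 in Isl1 neurons. Satb1 had its highest mean in Isl1 neurons (0.642 ± 0.50), and Foxp2 also (0.548 ± 0.657), but in both the step to the next class was within the spread. Bcl11a lay between 2.29 ± 0.57 and 2.83 ± 1.24 in all 6 classes, with every step within the spread.

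Whether the factors occupied the same cells was tested next. For each pair, the number of cells positive for both in a sample was set against the number expected if the 2 genes were independent within that sample. A 2-sided exact sign-flip permutation test over the 9 samples was run for each member against every gene positive in 5% to 95% of cells, and adjusted over all those partners. The smallest p this test can give is 0.00391, so after adjustment a pair could pass only if at least 619 of a member's 7920 or 7921 partners had low p together. The most partners at the smallest p were 332, for Sox5. Of 42 member pairs tested, this test called 0 (lowest adjusted p = 0.0932), a count that this design nearly fixed. At an unadjusted p under 0.05, 4 pairs lay above and 6 below independence, where 4.39% of all 79203 tests of a member with a partner lay above and 4.44% below. After adjustment 0% were called in either direction.

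Sox5 and Tox were not found positive in the same cell. Of 221 Sox5 and 55 Tox neurons, 0 cells were positive for both where 14.9 were expected. A floor of 3 cells would be 0.370% of cells, a bound that takes cells as independent draws although they come from 9 samples. The count lay below expectation in 9 of 9 samples (p = 0.00391 by exact permutation, 0.0932 when adjusted). Sox5 and Mef2c shared 18 cells where 44.7 were expected, below in 9 of 9 samples (p = 0.00391 by exact permutation, 0.0932 when adjusted). Sox5 and Satb1 shared 2 where 11.2 were expected, below in 8 of 9 (p = 0.0117 by exact permutation, 0.139 when adjusted).

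Tox and Satb1, 1 of the 6 pairs below independence at an unadjusted p under 0.05, shared 0 cells where 2.31 were expected. Under 1 cell was expected in each sample (0.116 to 0.581), so 0 shared cells put all 9 samples below expectation, and the test of this pair is not read. With 1 count as the threshold Tox and Satb1 shared 14 cells where 12.8 were expected, and Sox5 and Tox 12 where 50.9 were expected. Foxp1 and Tox shared 2 where 10.9 were expected, below in 8 of 9 samples (p = 0.00781 by exact permutation, 0.193 when adjusted).

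Foxp1 and Mef2c shared 56 cells against 35.1 expected, above in 7 of 9 samples, which did not pass (p = 0.0391 by exact permutation, 0.410 when adjusted). Foxp2 and Mef2c shared 10 of the 18 Foxp2 cells against 4.14 expected (p = 0.0312 by exact permutation, 0.299 when adjusted). Bcl11a and Bcl11b, the most widespread pair, shared 473 cells against 465 expected, and Bcl11a with Sox5 163 against 161. Bcl11a and Mef2c shared 134 against 119 expected, above in 8 of 9 samples (p = 0.0117 by exact permutation, 0.296 when adjusted). Bcl11b and Tox shared 52 of the 55 Tox cells against 44.0 expected (p = 0.0117 by exact permutation, 0.238 when adjusted).

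**Figure D4:**
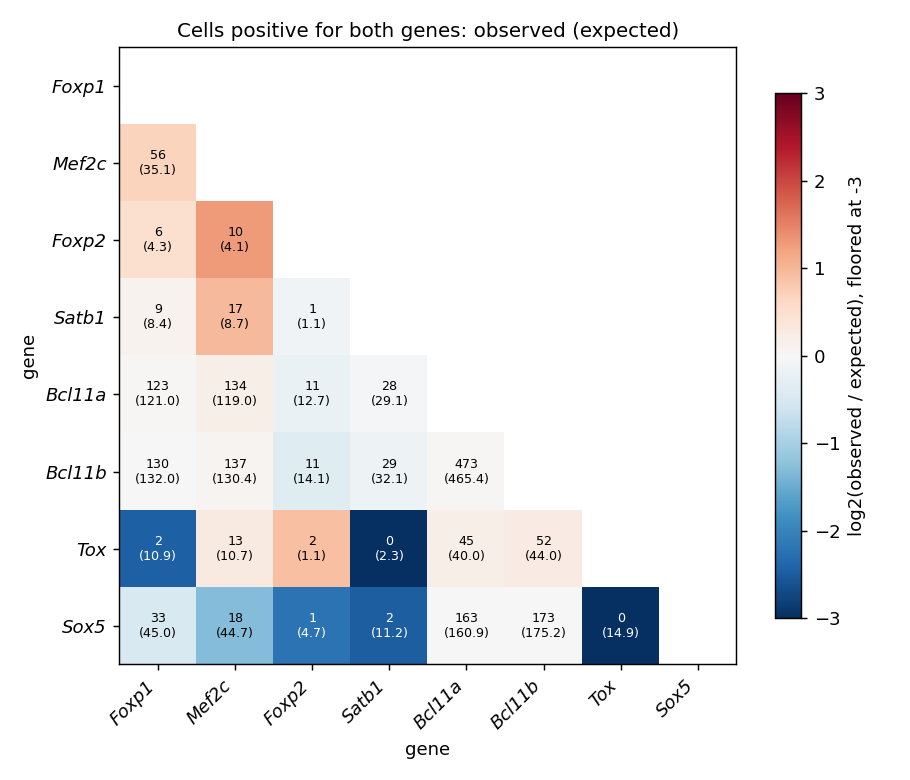
Cells positive for both genes of a pair among 810 inhibitory neurons, with the number expected under independence within samples in brackets; colour is log2 of observed to expected, floored at -3. Sox5 shares 0 cells with Tox, 2 with Satb1 and 18 with Mef2c, Tox shares 0 with Satb1, and Foxp1 shares 56 with Mef2c.

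Because that test called 0 pairs, a second was chosen after its result was known: edgeR on counts summed over the cells positive and not positive for one member. It called 4 pairs below and 1 above. Among Sox5-positive neurons, Tox was lower (log2 fold change -6.72 ± 0.72, SE, edgeR adjusted p = 9.62e-05), with 10 counts in Sox5 neurons and 2132 in the others. Satb1 (-4.36 ± 0.81, edgeR adjusted p = 0.00488), Mef2c (-2.09 ± 0.44, edgeR adjusted p = 0.0101) and Foxp1 (-0.98 ± 0.25, edgeR adjusted p = 0.0295) were lower too. In this split 2.61% of all genes were higher and 4.95% lower. Tox and Satb1 did not overlap between the groups, while Foxp1 was lower in 7 of 9 samples and its call was lost without sample 4 (edgeR adjusted p = 0.0758).

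Of the 4 genes lower in the Sox5 split, Tox was the 1 whose own split passed in reverse. Tox-positive neurons of the 6 samples that held at least 5 of them had 5 Sox5 counts, and the others 5730 (log2 fold change -6.98 ± 0.79, SE, edgeR adjusted p = 0.00174). In this split 0.36% of all genes were higher and 0.432% lower. Sox5 was at -2.19 ± 0.57 (SE) in the Mef2c split (edgeR adjusted p = 0.0977), at -3.07 ± 1.10 in the Satb1 split, which used 3 samples (edgeR adjusted p = 0.805), and at -0.55 ± 0.22 in the Foxp1 split (edgeR adjusted p = 0.425). Among Mef2c-positive neurons Foxp2 was higher (3.09 ± 0.66, edgeR adjusted p = 0.0418), where 0.404% of all genes were higher and 0.439% lower, and that call was lost without sample 4 (edgeR adjusted p = 0.119). Foxp1 was at 1.10 ± 0.30 in the Mef2c split and did not pass (edgeR adjusted p = 0.114).

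Splits by the other members called 0 members with edgeR. At an unadjusted p under 0.05 were 3 of 8 tested members in the Foxp1 split, where 9.76% of all genes were, and 2 of 8 in the Bcl11b split, where 12.2% were. In the Bcl11a split it was 1 of 8, with 4.66% of all genes, and in the Satb1 split, with 3 samples, 2 of 8, with 6.10%. For the splits with calls it was 4 of 7 for Sox5, 4 of 8 for Tox and 4 of 8 for Mef2c, with 20.2%, 13.7% and 11.3% of all genes. After adjustment 0.168% of genes were higher and 0.053% lower in the Foxp1 split, 0.787% and 0.306% in the Bcl11b split, and 0% either way in the other 2.

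The Prkcd class touches these pairs, since 172 of the 221 Sox5 neurons were Prkcd-positive. With independence taken separately within Prkcd-positive and other cells, Sox5 and Tox shared 0 cells against 10.004 expected, Sox5 and Mef2c 18 against 27.9, and Foxp1 and Mef2c 56 against 40.7. In Prkcd-negative cells alone, edgeR called 1 pair: Mef2c was lower in Sox5 neurons (-5.26 ± 0.80, SE, edgeR adjusted p = 0.0174). That fit used the 6 samples with at least 5 such Sox5 neurons, and each held 6 or 7 of them. Tox in that fit was at -9.93 ± 1.95 (SE, edgeR adjusted p = 0.124).

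**Figure D5:**
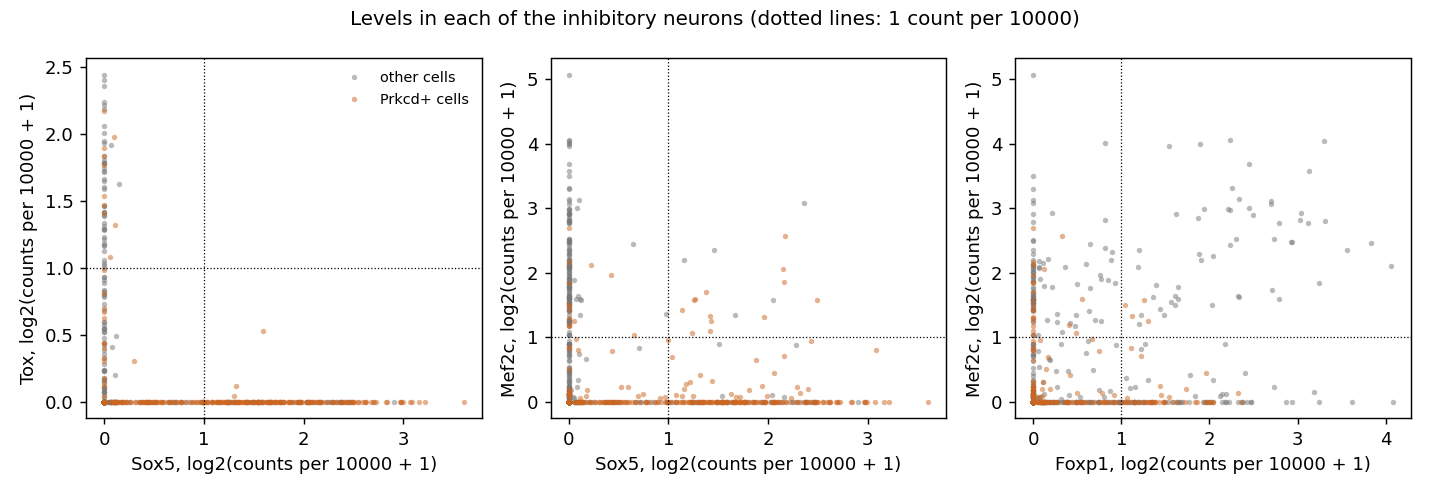
Level in each of the 810 inhibitory neurons on a log2(counts per 10000 + 1) scale for 3 pairs, with Prkcd-positive cells in colour and the positivity threshold dotted. The upper right corner holds 0 cells for Sox5 and Tox, 18 for Sox5 and Mef2c, and 56 for Foxp1 and Mef2c.

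Genes whose levels ran most like each member were ranked over 8084 genes by the mean over 9 samples of the within-sample Pearson correlation across cells. Cells of a sample share a library and differ in depth, so these are descriptions. Sox5 ran most like Prkcd (mean r = 0.48), Nnat (0.45) and Spg21 (0.40), and least like Nefl (-0.44) and Rasgrf1 (-0.42). Tox ran most like the neuropeptide genes Sst (0.52), Pdyn (0.52) and Tac2 (0.47), and least like Cpne7 (-0.35) and Ap1s2 (-0.30).

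Foxp1 and Mef2c had 2 of their top 3 genes in common. Foxp1 ran most like Gucy1a3 (0.40), a subunit of soluble guanylate cyclase, Cck (0.39) and Hpca (0.36), and Mef2c like Gucy1a3 (0.37), Cpne5 (0.31) and Cck (0.30). Mef2c ran least like Prkcd (-0.28) and Nnat (-0.27), and Foxp1 least like Nap1l5 (-0.23) and Tagln3 (-0.20). Bcl11b ran most like Ptk2b (0.35), Arpp21 (0.35) and Ppp1r1b (0.35), the last 2 being phosphoproteins of striatal projection neurons, and least like Tuba1b (-0.31) and 2410022L05Rik (-0.27).

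Satb1 ran most like 6330512M04Rik (0.34), Syt4 (0.31) and Sparcl1 (0.31), and least like Nnat (-0.30) and Itm2c (-0.25). Foxp2 ran most like E130309F12Rik (0.21), Mef2c (0.20) and Galntl4 (0.20). Bcl11a and Foxp4 reached at most 0.18 (Tceb2) and 0.16 (Plxnb2).

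Partner genes of the factors were counted in the same fits. Of the members' paralogs, 9 of 11 were in the table and 6 were tested in the Prkcd split, where 3 were higher and 0 lower (median 0.51 against -0.02 over all genes, of which 7.59% were higher and 9.74% lower). Sox13, the third SoxD gene, was higher in Prkcd neurons (4.53 ± 1.03, SE, edgeR adjusted p = 0.00736), as was Mef2a (0.82 ± 0.11, edgeR adjusted p = 0.000157), a paralog of Mef2c, which was itself lower there. Mef2a was lower in Nts (-0.62 ± 0.15, edgeR adjusted p = 0.0424) and Isl1 neurons (-0.78 ± 0.20, edgeR adjusted p = 0.0421). It was the 1 paralog that passed in each, of 6 and 5 tested, where 1.26% and 3.15% of all genes were lower. In the Sst and Nr2f2 splits 0 paralogs passed.

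Of 22 tested BAF subunits, 3 were higher and 1 lower in Prkcd neurons (median 0.11), where 7.59% of all genes were higher and 9.74% lower. In Sst neurons 1 was higher and 1 lower (median -0.16), where 2.25% and 2.26% of all genes were, so the Sst counts lie near the share over all genes. The ATPase Smarca2 was higher in Prkcd neurons (0.52 ± 0.08, edgeR adjusted p = 0.000426) and lower in Sst neurons (-0.41 ± 0.10, edgeR adjusted p = 0.0353). Smarcd1 was lower in Prkcd neurons (-0.59 ± 0.16, edgeR adjusted p = 0.0183) and higher in Sst neurons (0.72 ± 0.15, edgeR adjusted p = 0.0125). The 2 splits share cells, so the opposite signs are not independent. In the Nts, Isl1 and Nr2f2 splits edgeR called 0 BAF subunits.

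Of 25 tested corepressors and deacetylases, 2 were higher and 3 lower in Prkcd neurons (median 0.10), near the 7.59% and 9.74% of all genes. The genes named here are therefore single genes of the list and no result about it. Hdac9, a class IIa deacetylase that binds Mef2 proteins, was higher in Prkcd neurons (1.62 ± 0.18, edgeR adjusted p = 3.24e-05) and in Nr2f2 neurons (1.34 ± 0.29, edgeR adjusted p = 0.0354). Ctbp2, a corepressor, was lower in Prkcd neurons (-1.47 ± 0.30, edgeR adjusted p = 0.00318), and Ncor1 was lower in Isl1 neurons (-0.80 ± 0.21, edgeR adjusted p = 0.0439). The Sst and Nts splits called 0 of the 25.

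Striatal projection neuron genes were mixed in Prkcd neurons, with 6 of 18 higher and 6 lower (median -0.50), where 7.59% and 9.74% of all genes were. The dopamine receptor gene Drd1a was lower (-6.84 ± 0.71, edgeR adjusted p = 1.59e-05), as was Gpr6 (-4.37 ± 0.73, edgeR adjusted p = 0.000844). In Isl1 neurons 0 of 16 were higher and 6 lower (median -0.85 against -0.34, with 1.69% and 3.15% of all genes), and in Nr2f2 neurons 0 of 17 were higher and 3 lower (median -1.79 against -0.24, with 0.4% and 1.28%). In Sst neurons 3 of 16 were higher and 1 lower, where 2.25% of all genes were higher and 2.26% lower. There the opioid precursor gene Pdyn was higher (4.95 ± 0.20, edgeR adjusted p = 2.15e-09). In Nts neurons 1 of 16 was higher and 1 lower, with 1.01% and 1.26% of all genes.

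Genes of interneurons from the medial ganglionic eminence had 2 of 8 higher and 3 lower in Prkcd neurons (median -1.69), and those of the caudal eminence 0 of 5 higher and 2 lower (median -1.15). The share of all genes was 7.59% higher and 9.74% lower. Of the first list, Pvalb was higher in Prkcd neurons (8.30 ± 0.78, edgeR adjusted p = 6.87e-06) and Erbb4 lower (-3.48 ± 0.79, edgeR adjusted p = 0.00715). Of the caudal list, Reln (-6.87 ± 0.65, edgeR adjusted p = 7.43e-06) and Cck (-4.44 ± 0.45, edgeR adjusted p = 1.41e-05) were lower. Intercalated-cell genes had 1 of 9 higher and 2 lower in Prkcd neurons. In Sst neurons 1 of 10 was higher and 3 lower, where 2.25% of all genes were higher and 2.26% lower. In Nts neurons 0 of 10 were higher and 2 lower, with 1.01% and 1.26% of all genes. In Isl1 neurons 0 of 10 were higher and 4 lower, with 1.69% and 3.15%. In Nr2f2 neurons 0 of 10 were higher and 1 lower, with 0.4% and 1.28%. The list medians were -0.52, -1.36, -1.11, -1.98 and -0.97 in these 5 splits. Drd1a belongs to both the striatal and the intercalated list.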

How the data were processed

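Single cells of the central amygdala of 9 samples in 1 group were analysed. Whole-number counts for each gene and cell, without normalization, are what the authors deposited, and their 91 ERCC spike-in rows were dropped here. Per the submitters' processing notes the genome build was NCBIM37 and Seurat was used. Aligner, annotation, strand and molecular identifiers were not given in the sources used here. Intervals cover counting error only. Sample, animal number and date field were read from the cell names and the deposited cell table.

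Levels were counts per 10000 of a cell's gene counts, and a cell was positive at 1 or more. Counts were summed per sample over cells positive and not positive for a gene, with at least 5 cells per class, and tested with edgeR 4.0.16 in R 4.3.3 (the quasi-likelihood test with a block for the sample, after filterByExpr and TMM, with Benjamini-Hochberg adjustment over all genes tested and a threshold of 0.05). Blocking was used because both classes are made of cells of the same sample. DESeq2 1.42.0 was an alternative. Co-expression used an exact sign-flip permutation test over samples. Other alternatives were median-of-ratios scaling, no filter, no block, other positivity thresholds, cells thinned to 74931 counts, cells positive for 1 marker only, and each sample left out. Alternatives chosen after seeing the data were leaving out cells under 20000 counts or positive for Mbp, equal cell numbers, and edgeR for pairs. The sign-flip and edgeR scripts were tested on simulated data. No doublet caller was run.

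The members, the gene lists and the tests were chosen with earlier results of these data known. The 3 most and 2 least alike genes are given for Foxp1, Bcl11b, Sox5, Tox, Satb1 and Mef2c. For Foxp2 only the 3 most alike are given, for Bcl11a and Foxp4 only the 1 most alike, and for Sox6 none. The text names all 10 members, and of each list the rule took up to 2 passing genes a fit by absolute log2 fold change. Not every list gene so chosen is printed, and 1 gene of these lists is not reported here.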

Additional observations from a re-analysis of the deposited data

Results flagged for a closer look

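In 20 groups of 9 samples (the share and the level of each of the 10 members), 3 had a sample far from the others. The rule flags about 1 in 20 groups by chance where groups are separate and values continuous. The share and level of a gene are not separate, and any 1 positive cell flags a share that is 0% in the other 8 samples. The count of 3 is therefore not set against that rate. The level of Foxp1 was 1.45 counts per 10000 in sample 4, where the next highest sample was at 0.871; that sample also had the highest share of Foxp1-positive cells. The share of Foxp4-positive cells was 1.22% in sample 7 and 0% in the other 8, and the level of Foxp4 in sample 7 was 0.0994 counts per 10000 against a next highest of 0.0712. Both Foxp4 values rest on 1 positive cell, which held fewer than 20000 counts.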

How the results depend on the processing

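The shares of positive cells of all 10 members moved by less than 1 SD under 3 alternatives. These were cells thinned to one depth, all deposited cells, and no cells under 20000 counts. The threshold for a positive cell was not among them, and the shares depend on it. At least 1 count was found for Foxp1 in 45.4% of cells, against 20.7% positive. For Sox5 it was 43.2% against 27.4%, for Mef2c 36.2% against 20.4%, and for Tox 14.6% against 6.72%. No called fold change turned its direction. With 1 count as the threshold for a positive cell, 2 fold changes that had not passed turned: Bcl11b in the Prkcd split (-0.034) and Satb1 in the Sst split (0.18). Sox5 and Mef2c in the Prkcd split and Sox5 in the Nts split passed under every alternative run.

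The sample block pairs the classes of a sample, and without the replicate block members called numbered 4 for Prkcd, 3 for Sst, 3 for Nts, 3 for Isl1 and 3 for Nr2f2, against 4, 3, 2, 3 and 4 with it. The 2 calls that differ are given beside the results.

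DESeq2 called more: 5 members for Sst and 4 for Nts, and 1494, 1329, 2156 and 1298 genes for Sst, Nts, Isl1 and Nr2f2, against 513, 256, 541 and 185 by edgeR. Against cells negative for all 5 markers, cells positive for 1 marker alone gave 1122 genes for Prkcd, and 0 members with 8, 11 and 3 genes for Sst, Isl1 and Nr2f2, with 5, 6 and 7 samples left; this was not run for Nts, where fewer than 3 samples had enough cells. At 3 counts per 10000 Nr2f2 gave 0 members and 12 genes with 6 samples, and Isl1 was not run for the same reason. At 1 count Prkcd gave 656 genes, Sst 0 members and 13 genes, and Nts 1 member and 44 genes. Thinning gave 351 genes for Isl1.

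Without Mbp-positive cells Nts kept 1 member, and genes called were 199, 97, 296 and 67 for Sst, Nts, Isl1 and Nr2f2. Equal cell numbers gave 217, 94, 45 and 21, with 1 member for Nr2f2; fewer cells and genes entered these fits. Leaving out 1 sample gave 319 to 461 genes for Sst, 167 to 265 for Nts and 84 to 139 for Nr2f2. The cause of the moves in these counts was not tested.

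For pairs, the permutation test called 0 above and 0 below, except 1 below at 3 counts per 10000 (Sox5 with Satb1, exact permutation adjusted p = 0.0345). The edgeR test called 1 above and 4 below, as it did when thinned, and 1 below in Prkcd-negative cells.

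The scarce members rest on few cells: Sox6 and Foxp4 were positive in 2 and 1 cells, and Foxp2 in 18. With cells thinned to the same depth, the mean shares were 0.421% for Sox6, 0.154% for Foxp4 and 2.56% for Foxp2. Without thinning they were 0.256%, 0.136% and 2.23%. Why these members were positive in few cells was not tested.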
